A study of Mus musculus with 6 samples.

Results

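Splicing of 57 genes of the DNA damage response and of DNA repair was examined in N2a cells, the mouse neuroblastoma line Neuro-2a. The genes were chosen by name, and every event that the deposited splicing table lists under one of their symbols was taken. The table held events of 54 of them, 381 events out of 45595 in 9594 genes, and listed none for Lig4, Msh6 and Xrcc5. Of the 381 events, 274 were skipped exons, 40 pairs of mutually exclusive exons, 27 alternative 3′ splice sites, 26 retained introns and 14 alternative 5′ splice sites. Per the labels, 3 RNA-seq libraries came from wild-type N2a cells and 3 from hnRNP DL-/- N2a cells. The latter are labelled as a knockout of the RNA-binding protein hnRNP DL, whose level was not measured here. No other allele or treatment is named, all cells share the line, and whether the knockout cells are 1 clone or the replicates separate cultures is not given in the sources used here. P-values therefore measure the spread between these libraries, which may be technical.

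The table puts the libraries in 2 sets of 3 and ties neither set to a genotype. They are called set 1 and set 2 here, each difference is set 1 minus set 2, and no direction can be read as an effect of the knockout. The sum of junction reads over the table, where 1 read can stand in several events, ranged from 13573870 to 16707466 in set 1 and from 13501749 to 18185394 in set 2. Hnrnpdl itself had 2014, 1806 and 1760 reads on its most covered event in set 1 and 2569, 2146 and 2034 in set 2, with a log2 ratio of -0.22 and a limma adjusted p of 0.392. On the first principal component of gene totals, which held 40.1% of the variance, set 1 library 1 lay at -5.83, beside the set 2 libraries (-18.0, -8.84 and -7.68) and apart from the other set 1 libraries (18.4 and 22). Totals of these genes whose call changed without that library, and several events, are given both ways. Of 12 neuroblastoma markers, 4 (Dbh, Chga, Isl1 and Gap43) had events in the table, with 1290 to 3260 summed reads per library in set 1 and 2123 to 3527 in set 2. No listed fibroblast, astrocyte or microglial marker had an event, and of the oligodendrocyte markers Mbp had 4 to 8 reads per library.

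Cells answer DNA breaks through the kinases ATM and ATR, which act through the checkpoint kinases CHK2 and CHK1 and through p53, a transcription factor held in check by MDM2 and MDM4. The lesions themselves are removed by dedicated pathways: homologous recombination and end joining for double-strand breaks, the Fanconi anaemia pathway for crosslinks between strands, excision and mismatch repair for damaged or mispaired bases, and translesion polymerases that copy past what remains. Several of these genes are known for splice forms that change the protein or that carry an early stop codon, and messages with a stop codon well upstream of the last exon junction are often degraded.

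The sequences of the choices that the results turn on are printed first. They come from the GENCODE vM21 transcripts of GRCm38, the assembly of build mm10, in the sense of the gene. Capitals mark the bases that only the inclusion form carries, and lower case marks the neighbouring exon sequence. The 3-base acceptors are choices between adjoining 3′ splice sites; in REV1, a scaffold and deoxycytidyl transferase of translesion synthesis, in MDM4, in DNA ligase III and in the mismatch protein MSH3, each changes the protein by 1 codon.
Rev1 acceptor, chr1:38079396-38079398, minus strand: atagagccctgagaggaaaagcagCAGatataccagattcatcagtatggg
Mdm4 acceptor, chr1:133012712-133012714, minus strand: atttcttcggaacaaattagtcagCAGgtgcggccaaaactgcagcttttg
Lig3 acceptor, chr11:82787628-82787630, plus strand: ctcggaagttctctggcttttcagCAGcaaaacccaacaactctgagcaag
Msh3 acceptor, chr13:92235729-92235731, minus strand: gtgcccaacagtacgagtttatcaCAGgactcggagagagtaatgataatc

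All 4 of these insertions read CAG. The table holds 7 such 3-base acceptors in the 57 genes, all ending in AG and 4 of them CAG (57.1%); over all genes 614 such acceptors had a sequence, of which 99.3% ended in AG and 69.9% were CAG. The next set shows exons that change the start or the length of the protein. The Mdm2 exon holds the annotated start codon, the Mdm4 exon is the one whose skipping is known to give the short form MDM4-S, and the Rif1, Fancd2 and Fancl exons keep the reading frame.
Mdm2 exon, chr10:117709700-117709784, minus strand: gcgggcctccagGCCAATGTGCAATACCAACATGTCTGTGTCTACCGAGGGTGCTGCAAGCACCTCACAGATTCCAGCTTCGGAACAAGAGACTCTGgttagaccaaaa
Mdm4 exon, chr1:133004654-133004721, minus strand: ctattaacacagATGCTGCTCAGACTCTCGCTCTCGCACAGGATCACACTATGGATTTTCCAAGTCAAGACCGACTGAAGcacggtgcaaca
Rif1 exon, chr2:52116668-52116745, plus strand: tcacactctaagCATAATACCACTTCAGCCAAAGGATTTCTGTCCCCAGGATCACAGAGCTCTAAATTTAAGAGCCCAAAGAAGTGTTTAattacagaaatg
Fancd2 exon, chr6:113586210-113586248, plus strand: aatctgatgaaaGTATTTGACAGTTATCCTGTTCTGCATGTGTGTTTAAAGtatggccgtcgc
Fancl exon, chr11:26403322-26403378, plus strand: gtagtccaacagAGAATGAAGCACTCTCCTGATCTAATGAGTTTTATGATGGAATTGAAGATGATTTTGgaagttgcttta

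The last set shows inserted sequence that ends the reading frame, printed up to the stop codon that closes it. In Trp53 the 96-base extension replaces the end of the protein; in Rev3l, the catalytic subunit of polymerase zeta, and in Rev1 the added exon stops the frame long before the last junction.
Trp53 extension, chr11:69591254-69591349, plus strand: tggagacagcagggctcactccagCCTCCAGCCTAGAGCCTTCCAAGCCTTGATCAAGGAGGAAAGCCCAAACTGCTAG
Rev3l exon, chr10:39742691-39742818, plus strand: cgaccccggcagAATAA
Rev1 exon, chr1:38074899-38075023, minus strand: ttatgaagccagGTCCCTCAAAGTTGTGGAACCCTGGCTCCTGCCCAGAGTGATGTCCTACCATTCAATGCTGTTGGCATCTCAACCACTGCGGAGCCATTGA

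In most events of these genes one form held nearly all of the reads or the rarer form was thinly read, and no event passed the test between the sets. Of the 381 events, 336 in 51 genes had a mean of 20 or more reads per library and were tested, and 45 fell under that minimum. The inclusion level is the share of the inclusion form, from 0 to 1, after scaling reads by the length of each form. In 75.3% of the tested events the rarer form had fewer than 5 reads per library on average, against 69.2% of all tested events. The median absolute difference between set means was 0.00984 for the 336 events and 0.00830 for all 39419. A difference of 0.10 or more was seen in 7 events (2.08%), against 2.62% of all events.

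A moderated quasi-binomial test, with Benjamini-Hochberg adjustment over all events and a call at an adjusted p under 0.05 with a change of 0.10 or more, called 0 of the 336 events and 0% of all 39419. The smallest adjusted p among the 336 was 0.735. At an unadjusted p under 0.05 the test gave 7 of them (2.08%), against 3.45% of all events. With limma on logit levels the number was 0 of the 336 too. In that test 12 of the 336 had an unadjusted p under 0.05, against 1298 of all 39419 events. The smallest adjusted p was 0.632 among the 336 and 0.0162 over all events. In 16 events (4.76%) the libraries of one set all lay above or all below those of the other, against 5.93% of all tested events. Set 1 was the higher one in 14 of those (4.17% of the 336, against 3.23% of all events), and the lower one in 2 (0.595%, against 2.70%). This difference between the directions was not tested. The 16 events are not all separate: some share reads or rest on few reads of the rarer form, as given below for Rad51c and Rev3l.

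**Figure D1:**
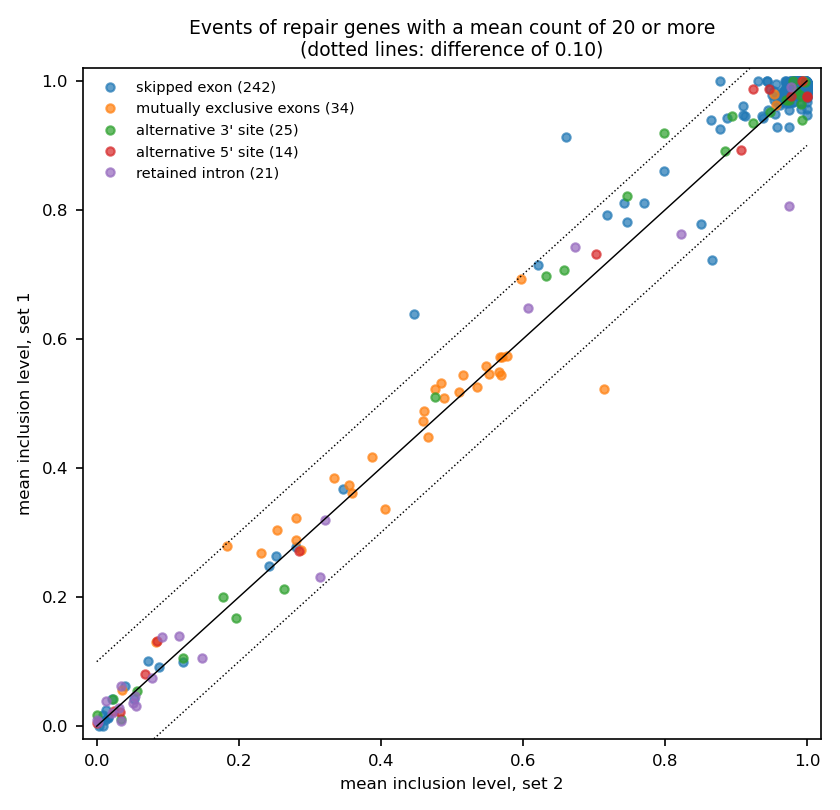
Mean inclusion level in set 2 (horizontal, 0 to 1) and set 1 (vertical, 0 to 1) for the 336 tested events, 1 point per event, coloured by kind of event, with the number of each kind in brackets. The solid line marks equal levels and the dotted lines a difference of 0.10; 7 points lie on or beyond the dotted lines, and none of the 336 passed the test.

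In the authors' deposited table, 4 of the 381 events (1.05%) met the same thresholds on the authors' own adjusted p and change, against 0.645% of all 45595 events. They lie in Rev1, Fancg, Mdm4 and Ddb2. Only the Rev1 event had a mean count of 20 or more, and the quasi-binomial test did not call it; the other 3 had too few reads to enter that test.

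The clearest difference between libraries was at the 3-base acceptor of Rev1, shown first above. Use of the upstream site, which keeps the CAG, had a level of 0.952, 0.930 and 0.879 in set 1 and of 0.769, 0.819 and 0.806 in set 2. All 3 set 1 libraries lay above all 3 of set 2, and both forms keep the frame, with 1249 and 1248 codons. The longer form had 60, 67 and 81 reads in set 1 and 71, 69 and 63 in set 2, and the shorter form 3, 5 and 11 against 21, 15 and 15. The difference was 0.122, with an unadjusted quasi-binomial p of 0.00605 and an adjusted p of 0.735. The authors' deposited table gives the same event an adjusted p of 0.0276. Without set 1 library 1 the difference was 0.106. The same shorter-form reads also stand as the skipping reads of a 200-base Rev1 exon next to the acceptor, at 0.880, 0.630 and 0.405 in set 1 and 0.373, 0.483 and 0.483 in set 2 (unadjusted p = 0.0615), so these events share their data. Without set 1 library 1 the difference of that exon went from 0.192 to 0.0713.

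**Figure D2:**
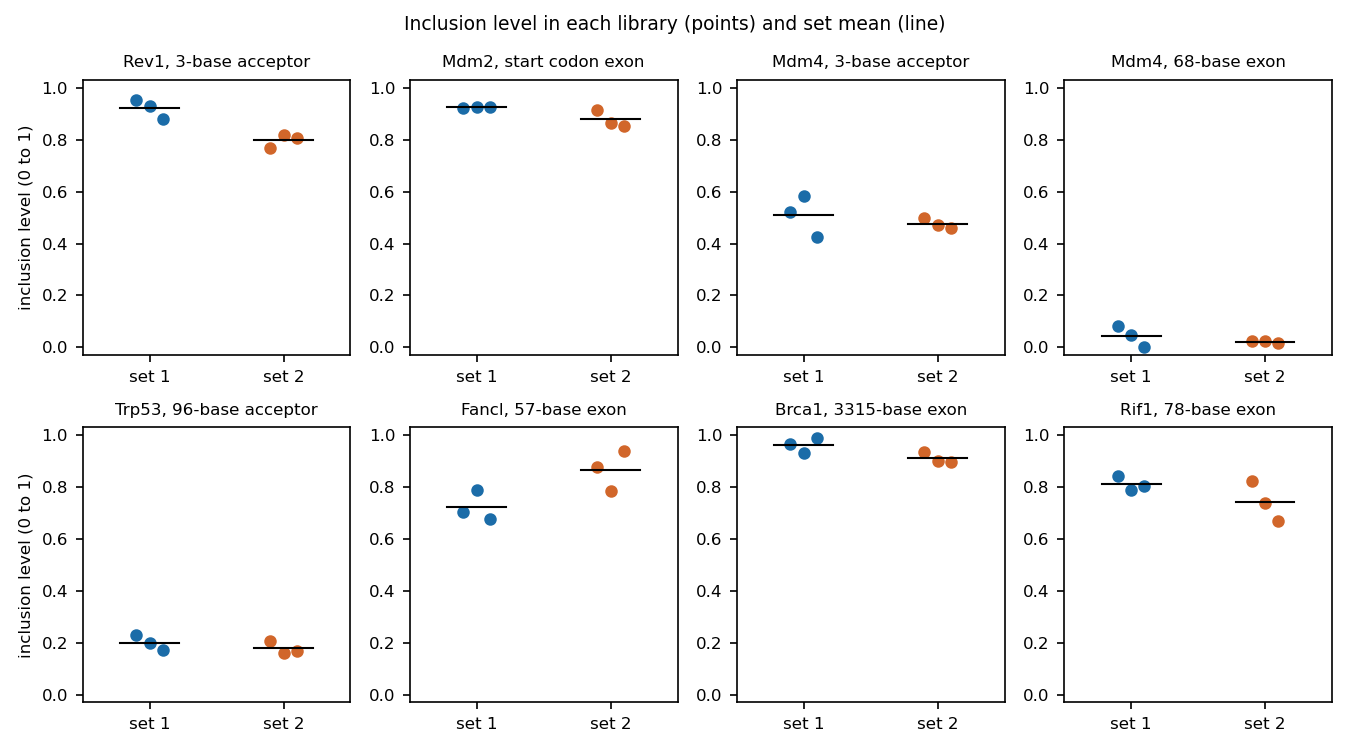
Inclusion level (vertical, 0 to 1) of 8 splicing choices in each library (points) of set 1 and set 2, with the mean of each set as a line. The sets do not overlap at the Rev1 acceptor and the Mdm2 start codon exon, and overlap at the other choices, where the levels run from 0 at the Mdm4 68-base exon to 0.988 at the large Brca1 exon.

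In the p53 axis, isoform choices of Trp53 and Mdm2 were read deeply, and the sets lay close together at most events. The 4 genes had 52 events, 47 tested, with a median absolute difference of 0.00895. In 17 events the rarer form had 5 or more reads per library on average. The sets did not overlap in 3 of the 47, against 5.93% of all tested events. MDM2 is the ubiquitin ligase that marks p53 for degradation, and its 85-base exon carries the annotated start codon. Inclusion of that exon was 0.924, 0.925 and 0.927 in set 1 and 0.916, 0.864 and 0.854 in set 2. Every set 1 library lay above every set 2 library, and set 2 library 1 lay next to set 1. Skipping reads numbered 25, 27 and 28 in set 1 against 32, 46 and 59 in set 2, beside 474, 524 and 557 against 544, 458 and 538 inclusion reads. The difference of 0.0476 had an unadjusted p of 0.0231 and an adjusted p of 0.735; the authors' deposited table gives 0.0611 as its adjusted p. A longer version of this exon, 131 bases, shares its skipping junction and stood at 0.789, 0.778 and 0.810 in set 1 and at 0.793, 0.698 and 0.668 in set 2, where the sets overlapped (adjusted p = 0.735). A 46-base extension of the exon's 5′ splice site, which brings an early stop, was used at mean levels of 0.0241 and 0.0245.

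MDM4 binds and inhibits p53 without being an effective ligase itself. In N2a cells the 68-base exon that the full-length protein needs was mostly skipped in this table: 15 inclusion reads stood against 301 skipping reads over the 6 libraries. Its level was 0.0809, 0.0470 and 0 in set 1 and 0.0240, 0.0232 and 0.0151 in set 2. The sets overlapped (adjusted p = 0.735). In the annotated reading frame inclusion gives 490 codons, and skipping gives 128 with an early stop. The event was added after its values were seen, for the known short form. The 3-base acceptor of Mdm4 was split nearly evenly, at 0.522, 0.583 and 0.425 in set 1 and 0.497, 0.472 and 0.460 in set 2, with 490 and 489 codons. The event of Mdm4 that the authors called, a 56-base exon skipped together with neighbouring exons, rests on skipping reads of 0, 1 and 0 in set 1 and 6, 3 and 0 in set 2, with levels of 1, 0.898 and 1 against 0.523, 0.773 and 1. One set 2 library thus had no skipping read, and the mean count of 15.7 kept the event out of the test (authors' deposited adjusted p, 0.0295). A 5′ UTR exon of 78 bases was included at mean levels of 0.0425 and 0.0519.

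Trp53 itself, which encodes p53, used the 96-base extension at 0.228, 0.20 and 0.172 in set 1 and 0.208, 0.160 and 0.168 in set 2. With 832 reads of the extended form and 2126 of the regular form, this choice had the most reads of the rarer form in the p53 axis outside mutually exclusive exons. The regular form has 390 codons and the extended form 381, ending at the stop codon printed above. The sets overlapped, with a difference of 0.0215 and an adjusted p of 0.735; without set 1 library 1 the difference was 0.0075. A retained intron of 731 bases in Trp53 was at mean levels of 0.0201 and 0.0216. In Trp53bp1, whose protein binds marked chromatin at breaks and favours end joining, an in-frame exon of 93 bases had mean levels of 0.945 and 0.936 and one of 120 bases 0.928 and 0.958. A 138-base exon of the same gene that brings an early stop was at 0.0626 and 0.0398, and the sets overlapped at each of these exons.

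Among the checkpoint kinases, 26 events in 5 genes were all tested, with a median absolute difference of 0.0102. None of the 26 separated the sets, against 5.93% of all tested events. In Chek2, the kinase downstream of ATM, a 130-base 5′ UTR exon was included at 0.260, 0.198 and 0.287 in set 1 and 0.335, 0.228 and 0.164 in set 2. These ranges overlapped. In Atr, the kinase that senses single-stranded DNA, 1 skipped exon had an unadjusted p of 0.0464, at a mean level of 0.947 in set 1 and 1 in set 2, with 1.33 skipping reads per library on average.

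In homologous recombination, choices in Brca1 and Palb2 change much of the protein. BRCA1 loads the recombination machinery at resected ends, and its 3315-base exon (chr11:101523325-101526639) holds most of the coding sequence: 1812 codons remain with it and 707 without it, in the same frame. Inclusion was 0.966, 0.929 and 0.988 in set 1 and 0.933, 0.899 and 0.897 in set 2. The sets overlapped through set 1 library 2 and set 2 library 1. Skipping reads summed to 10 in set 1 and 27 in set 2 (difference 0.0511, unadjusted p = 0.0883, adjusted p = 0.735). PALB2 links BRCA1 to BRCA2, and skipping of its 94-base exon leaves 38 codons of 1104 before an early stop. That exon was included at 0.842, 0.920 and 0.822 in set 1 and 0.863, 0.688 and 0.844 in set 2, and the sets overlapped (difference 0.0631, adjusted p = 0.735).

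RIF1 limits the resection of breaks, and its 78-base exon was included at 0.842, 0.788 and 0.802 in set 1 and 0.822, 0.739 and 0.668 in set 2. The protein has 2426 codons with the exon and 2400 without it, and the sets overlapped (difference 0.0677, adjusted p = 0.735). Rad51c encodes a recombination protein, and its exons of 134 and 167 bases were never skipped in set 1 and had 1, 3 and 1 skipping reads in set 2. The same reads per library stand in both events, so they are 1 observation of 5 reads; the mean levels were 1 against 0.931 and 1 against 0.944, with unadjusted p-values of 0.0881 and 0.0794. The largest difference of all 336 events was at a 76-base exon of Rad52, which encodes a protein of strand annealing, at 0.952, 1 and 0.785 in set 1 and 0.756, 0.785 and 0.437 in set 2. It rests on 5 skipping reads in set 1 and 16 in set 2, the highest set 2 level and the lowest set 1 level were both 0.785, and the unadjusted p was 0.111. In Rad50, part of the complex that tethers broken ends, 8 of 9 skipping reads of a 158-base exon came from set 2 library 1 (unadjusted p = 0.0340).

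For end joining, 3 of 5 genes had events, 15 in all. None of these 15 separated the sets, against 5.93% of all tested events. Xrcc6, whose protein Ku70 caps broken ends, included its 113-base exon at 0.989, 0.982 and 0.997 in set 1 and 0.962, 0.985 and 0.991 in set 2. Skipping it leaves 33 codons before an early stop, and the sets overlapped.

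The Fanconi anaemia genes had the highest median absolute difference of the 9 roles, 0.0150 over 46 tested events. It was not tested against the other roles. Read depth differed between the roles, and in a thinly read event 1 read moves the level further. The most covered event averaged 176 reads per library here and 2449.8 in base excision repair. In nucleotide excision repair, with a median absolute difference of 0.0127, it averaged 1540.2 in Ddb1, and 151 outside that gene, in Ercc5. A single most covered event does not give the depth of a role. Whether the order of the roles follows depth was not tested. FANCL is the ubiquitin ligase of the pathway, and its 57-base exon was included at 0.705, 0.787 and 0.676 in set 1 and 0.876, 0.784 and 0.939 in set 2. Set 1 library 2 lay just above set 2 library 2. The exon is in frame, with 375 codons against 356, and the difference of -0.144 had an unadjusted p of 0.0938 and an adjusted p of 0.735. FANCD2 is the protein this ligase modifies, and its 39-base exon was included at 0.720, 0.731 and 0.692 in set 1 and 0.622, 0.709 and 0.531 in set 2 (difference 0.0937, adjusted p = 0.735). In Fancg, of the core complex, a pair of mutually exclusive exons stood at 0.508, 0.579 and 0.481 in set 1 and 0.687, 0.678 and 0.776 in set 2. All 3 set 1 libraries were lower, and the difference of -0.192 had an unadjusted p of 0.0275 and an adjusted p of 0.735. The Fancg event called by the authors is a neighbouring pair with a mean count of 9.33, in which the first form had 1, 0 and 0 reads in set 1 and 1, 4 and 3 in set 2 (authors' deposited adjusted p, 0.0496). A 470-base retained intron of Fancg had mean levels of 0.806 and 0.974, from 7 and 1 spliced reads.

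Levels of mutually exclusive exons need care here. In 39 of the 40 pairs of these genes an annotated transcript holds both exons, so the counted junctions are also used by messages that carry both. In each role a pair was the event with the most reads of the rarer form, and the mean levels of these 9 pairs in set 1 and set 2 lay between 0.334 and 0.577. They were 0.573 and 0.577 in Xrcc6, 0.545 and 0.569 in Mdm2, 0.544 and 0.515 in Rad50, 0.549 and 0.566 in Fancd2, and 0.384 and 0.334 in Chek2. For the pair of Mdm2 the difference was -0.0238, and -0.0061 without set 1 library 1. In Rev3l such a pair was at 0.664, 0.706 and 0.707 in set 1 and 0.575, 0.623 and 0.595 in set 2. Its sets did not overlap, with a difference of 0.0948, an unadjusted p of 0.0322 and an adjusted p of 0.735. A pair in Fancl did not overlap either, at mean levels of 0.280 and 0.183 (unadjusted p = 0.236).

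In nucleotide excision repair, DDB1 and DDB2 recognise ultraviolet damage. Ddb1 was read at 1309.5 reads per library on its 103-base exon, with levels of 0.984, 0.985 and 0.99 in set 1 and 0.980, 0.978 and 0.965 in set 2. The sets did not overlap, but the difference was 0.0123 (unadjusted p = 0.0635, adjusted p = 0.735). At the other event of Ddb1, a skipped exon, the sets did not overlap either, but set 1 was the lower one. Its mean levels were 0.994 and 0.997 (difference -0.0035, unadjusted p = 0.226). The authors' call in Ddb2, a 143-base exon, had skipping reads of 0, 1 and 0 in set 1 and 6, 0 and 2 in set 2 and a mean count of 11.3 (authors' deposited adjusted p, 0.0160). One set 2 library was at a level of 1, as were 2 of set 1. Xpa, which verifies the lesion, included a 192-base exon with an early stop at 0.256, 0.244 and 0.60 in set 1 and 0.362, 0.407 and 0.273 in set 2.

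Base excision and single-strand break repair had the smallest median absolute difference of the 9 roles, 0.00328 over 41 tested events. No event of this role separated the sets, against 5.93% of all tested events. This role also held the most covered event of these genes, and its rank was not tested against read depth. APEX1 cuts the DNA backbone at sites that have lost a base, and its 69-base 3′ splice site extension was used at 0.965, 0.977 and 0.970 in set 1 and 0.967, 0.970 and 0.972 in set 2. The set 2 levels lay inside the range of set 1. DNA ligase III seals nicks, and its 3-base acceptor was kept at 0.786, 0.707 and 0.629 in set 1 and 0.670, 0.580 and 0.725 in set 2. In Polb, the gap-filling polymerase, all 9 skipping reads of a 73-base exon came from set 2 library 1 (unadjusted p = 0.0243).

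Mismatch repair was measured through Msh3 and Pms2. The 3-base acceptor of Msh3 was kept at 0.719, 0.681 and 0.693 in set 1 and 0.685, 0.551 and 0.660 in set 2 (difference 0.0659, adjusted p = 0.735), with set 2 library 1 above 1 set 1 library. Pms2, which acts after the mismatch is recognised, used the longer form of a 5-base acceptor choice at mean levels of 0.822 and 0.747, and the shorter form leaves 10 codons. In translesion synthesis, beside the Rev1 acceptor, the 128-base exon of Rev3l printed above was included at 0.304, 0.223 and 0.265 in set 1 and 0.302, 0.183 and 0.275 in set 2. That exon leaves 47 codons of 3122, and the sets overlapped (adjusted p = 0.735). The table lists the same exon a second time with another downstream exon, as an event of 21 reads per library, and there it was at 1, 1 and 1 in set 1 and 0.896, 0.802 and 0.936 in set 2. Those sets did not overlap, but the second event rests on 0 skipping reads in set 1 and 1, 2 and 1 in set 2. Its difference of 0.122 had an unadjusted quasi-binomial p of 0.0847 (adjusted 0.735), and limma on logit levels gave 0.00139 (adjusted 0.632). A 64-base 5′ UTR exon of Rev1 was at 0.289, 0.254 and 0.293 in set 1 and 0.248, 0.246 and 0.349 in set 2.

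Outside mutually exclusive exons, 52 events in 32 genes had a rarer form with 5 or more reads per library on average, and these carry most of what can be seen of isoform choice. By the annotated reading frame, 21 of them in 17 genes place an early stop in the inclusion form, defined as a stop codon more than 50 bases upstream of the last exon junction. A further 9 place it in the skipping form, and 19 keep the same stop codon. The 21 comprise 10 retained introns, 6 skipped exons, 3 alternative 3′ sites and 2 alternative 5′ sites. The mean level of these forms was lower in set 1 in 12 and higher in 9, and none passed the test. The 580-base extension and the 125-base exon of Rev1 share their skipping reads, so the 21 are not all separate observations. The 10 retained introns had mean levels from 0.0201 in Trp53 to 0.648 in Rad52. Of these, 7 were lower in set 1, some by very little: -0.0016 in Trp53, -0.0014 in Ercc1 and -0.0024 for the 95-base intron of Xrcc1. Without set 1 library 1 these became 0.0032, -0.0276 and 0.0084. The direction was not tested. The Rad52 intron was at 0.561, 0.615 and 0.768 in set 1 and 0.502, 0.657 and 0.661 in set 2, and a Fanci intron at 0.25, 0.222 and 0.222 against 0.248, 0.386 and 0.311. The sets overlapped at both.

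**Figure D3:**
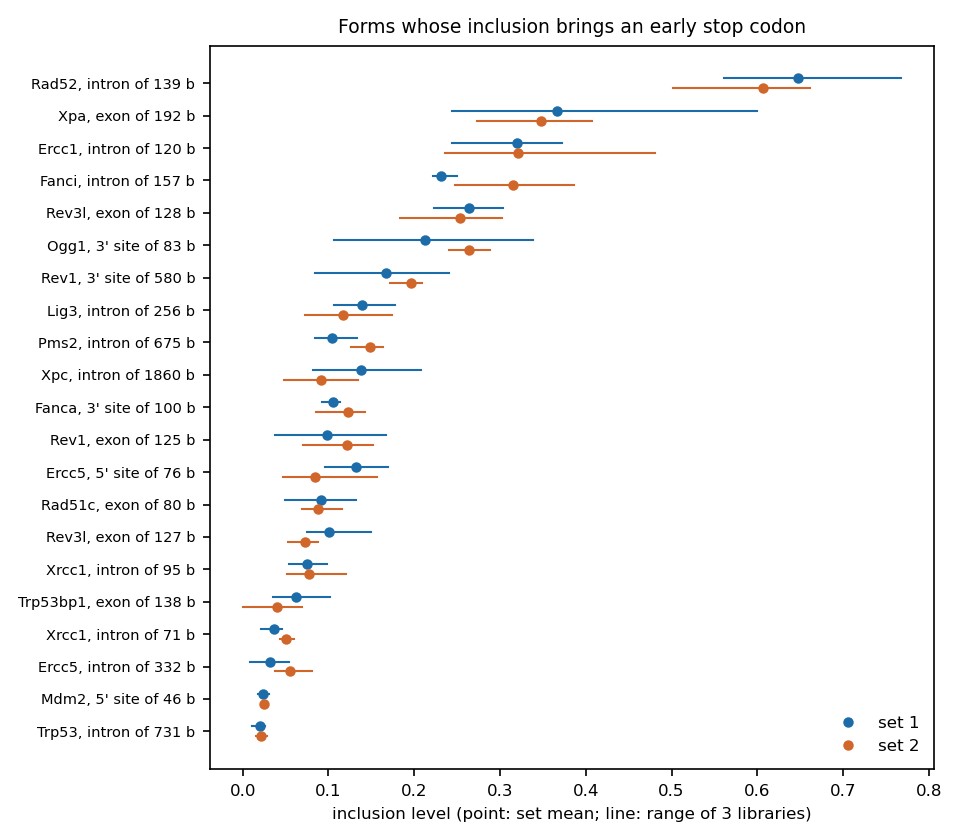
Inclusion level (horizontal, 0 to 1) of the 21 forms whose inclusion brings an early stop codon, named by gene, kind of event and length in bases. Points are means of set 1 and set 2 and lines the range of the 3 libraries; the ranges of the sets overlap for each form, from the Trp53 intron near 0.02 to the Rad52 intron above 0.6.

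The amount of message was followed by the junction total, the reads of a gene's most covered event scaled to the library's sum over genes (CPM). It moves with expression and with splicing of that event together, and fewer cells with the message and less RNA per cell cannot be told apart. Totals of 51 genes were tested with limma on log2(CPM + 1), and 0 passed an adjusted p under 0.05, against 1.06% of 8285 genes. At an unadjusted p under 0.05 there were 2 (3.92%, against 9.45% of all genes). In 5 genes (9.80%, against 14.1%) no library of one set lay among those of the other: Fancl, Lig3, Msh3, Rad52 and Xrcc6. The median log2 ratio was 0.01, as for all genes, and 46 of the 51 (90.2%, against 82.3%) lay within 0.30 of 0. Ddb2, Mutyh and Neil1 had too few reads.

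The highest totals of each role differed little between the sets. Apex1 had 2562, 2591 and 2183 reads in set 1 and 2611, 2320 and 2432 in set 2, with a log2 ratio of 0.04 ± 0.11 (SE) and an adjusted p of 0.974. Trp53 had 776, 615 and 523 reads against 763, 706 and 534, a log2 ratio of -0.02 ± 0.12 (adjusted p = 0.986). Ddb1 (-0.01), Xrcc6 (0.19), Rad50 (-0.21), Rev1 (-0.08), Chek1 (-0.17), Fanca (-0.01) and Pms2 (0.03) were the others, with adjusted p-values from 0.629 to 0.997. Among these highest totals, only those of Xrcc6 did not overlap between the sets. Counted per length of the forms, the totals were 184 for Apex1, 114 for Ddb1 and 65.0 for Trp53, against 11 for Msh3 and 5.07 for Fancl (CPM per 100 bases of form length, mean of 6 libraries).

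**Figure D4:**
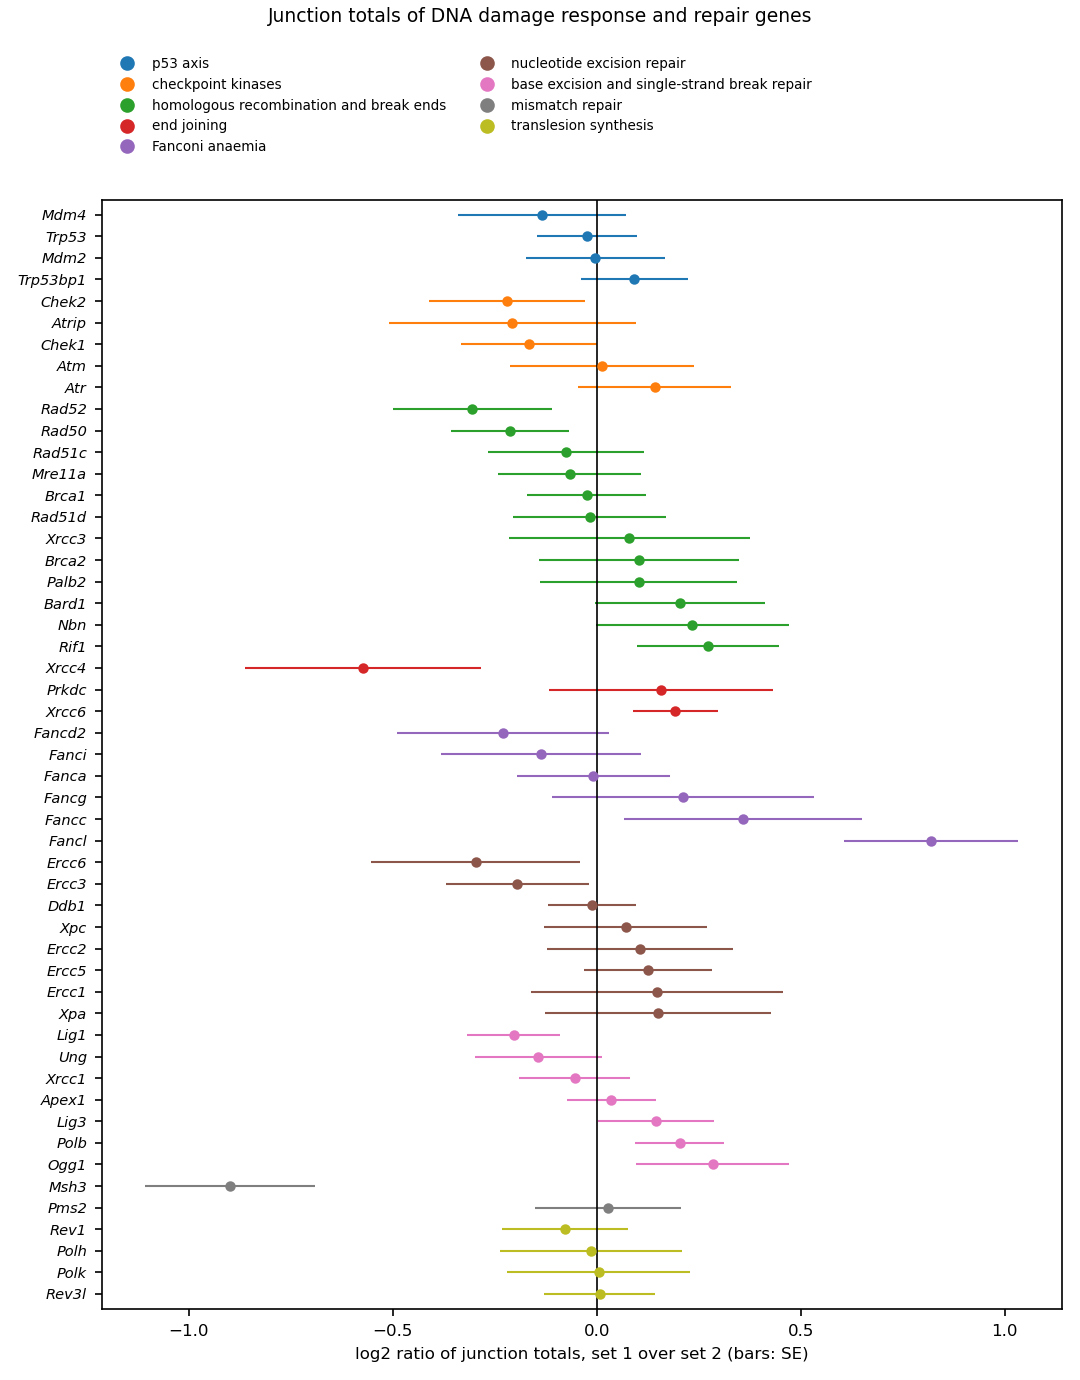
Log2 ratio of junction totals, set 1 over set 2 (horizontal; points are estimates and bars their SE), for the 51 genes tested, ordered by role and coloured by role. Msh3 at -0.90 and Fancl at 0.82 lie farthest from 0, and 46 of the 51 points lie within 0.30 of 0.

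Msh3 and Fancl had the largest ratios. MSH3 takes part in recognising insertion and deletion loops, and its total was 96, 58 and 77 reads in set 1 and 144, 137 and 167 in set 2. The sets did not overlap, and the log2 ratio was -0.90 ± 0.21 with an unadjusted p of 0.000848 and an adjusted p of 0.0675. Without set 1 library 1 the ratio was -0.97 with an adjusted p of 0.0170, and without set 2 library 1 it was -1.05 with 0.0470. Fancl had 75, 68 and 69 reads in set 1 and 54, 35 and 32 in set 2, a log2 ratio of 0.82 ± 0.21 with an unadjusted p of 0.00199 and an adjusted p of 0.101. All set 1 libraries were higher, and with reads summed over all skipped-exon events of the gene the ratio was 0.96 with an adjusted p of 0.0202. Xrcc4, the scaffold of the end-joining ligase, had 106, 42 and 37 reads in set 1 and 133, 68 and 72 in set 2. Its sets overlapped through set 1 library 1. Its log2 ratio was -0.57 ± 0.29 (adjusted p = 0.586), and without set 1 library 1 it was -0.93 with 0.0443. The main test called none of these genes, and the lower adjusted p-values come from alternatives to it. Leaving out set 1 library 1 also gave the most calls over all genes.

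The other ratios named by size did not pass the test. On the higher side were Fancc at 0.36 ± 0.29, the oxidised-guanine glycosylase Ogg1 at 0.28 ± 0.19, Rif1 at 0.27 ± 0.17 and Nbn, the third member of the RAD50 complex, at 0.23 ± 0.24. On the lower side were Rad52 at -0.30 ± 0.20, whose libraries did not overlap between the sets, Ercc6 at -0.30 ± 0.26 and Fancd2 at -0.23 ± 0.26. Their adjusted p-values ran from 0.704 to 0.897. The level of p53 targets gave no called change either, but few could be tested. Of 21 listed, 11 had an event, and the quasi-binomial test called 0 of 26 tested events, against 0% of all. Of 10 totals 0 passed, against 1.06% of all genes. At an unadjusted limma p under 0.05 there were 0 of the 10, against 9.45% of all genes. Their median log2 ratio was 0.09.

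Msh3 and Xrcc4 are neighbours on chromosome 13. The 7 tested genes within 1 Mb of Msh3 all had lower totals in set 1, with log2 ratios from -0.80 to -0.52 and a median of -0.73, and 1 passed the test. Within 5 Mb there were 27 genes, of which 24 were lower in set 1, with a median of -0.61. All 17 genes within 5 Mb of Xrcc4 were lower (median -0.69, 3 passed), against a median of -0.12 for the 287 tested genes of chromosome 13 and 0.01 for all genes. Xrcc4 lies at -2.41 Mb from Msh3, so these 5 Mb windows hold mostly the same genes and are not separate observations. Msh3 is counted in the window of Xrcc4, and Xrcc4 in that of Msh3. The ratio of Msh3 itself, -0.90, was lower than that of each of those 7 genes, and within 5 Mb Atg10 was lower still, at -1.03. Polk, a translesion polymerase gene 4.17 Mb from Msh3 and so inside its 5 Mb window, had a ratio of 0.01. Fancc, on the same chromosome but outside these windows, had a ratio of 0.36. These windows were chosen after the values of Msh3 and Xrcc4 were seen. The 30 genes within 5 Mb of Fancl had a median of -0.13.

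**Figure D5:**
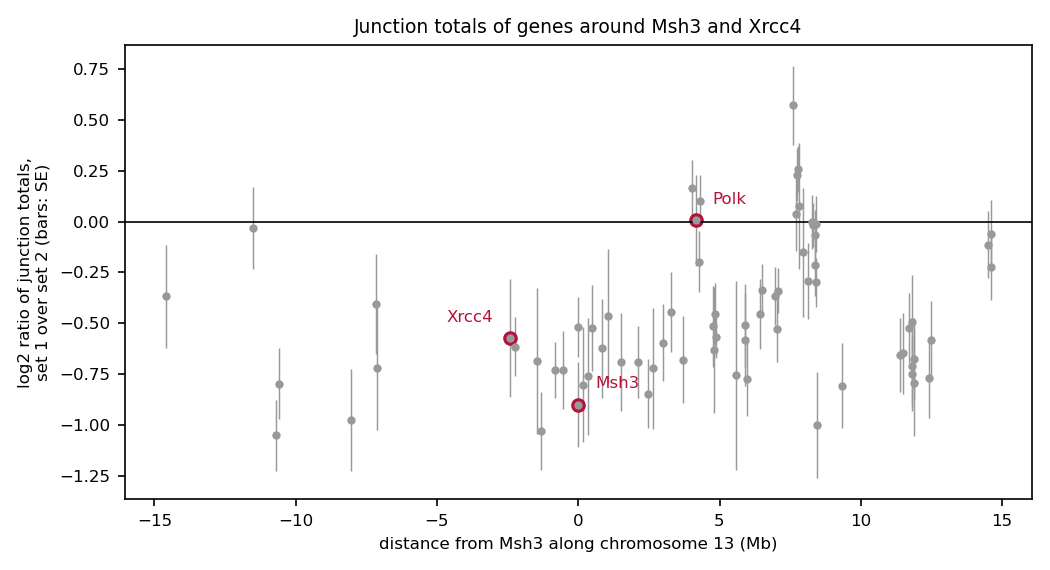
Log2 ratio of junction totals, set 1 over set 2 (vertical; bars are SE), against distance from Msh3 along chromosome 13 in Mb, for the tested genes within 15 Mb. The genes within 1 Mb of Msh3 lie between -0.80 and -0.52 and those within 1 Mb of Xrcc4 between -0.685 and -0.615. The genes next to Polk (0.01) lie on both sides of 0.

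Other genes of the same pathways were counted from a separate list of 86, of which 74 had events. The authors' deposited table called 3 of their 372 events (0.806%, against 0.645% of all). The sets did not overlap in 23 of 350 tested events (6.57%, against 5.93%). The quasi-binomial test called 0 of them, against 0% of all events, with a smallest adjusted p of 0.735. Of 74 totals 0 passed, against 1.06% of all genes. At an unadjusted p under 0.05 there were 2 of the 74 totals, Ercc8 and Neil3, against 9.45% of all genes. The median log2 ratio was -0.01.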

How the data were processed

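Total RNA of 6 N2a libraries was sequenced. The submitters' processing notes name Bowtie2 2.2.3, HISAT2 2.1.0, HTSeq 0.6.0 and build mm10, with no role for any. Per the file headers, the authors deposited, for each splicing event, junction read counts of the inclusion and the skipping form in every library, form lengths, an inclusion level (a fraction), the difference of mean levels, and a raw and an adjusted p-value, in the layout of rMATS, whose version is not given in the sources used here, nor is its annotation. Columns of per-library values left unused numbered 0. Levels recomputed from counts and lengths matched the deposited levels to within 0.0005. The table names sets of libraries without genotype or replicate numbers.

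The members, gene lists and tests were chosen with earlier results of these data known. Events averaging at least 20 reads per library were tested in R 4.3.3 with limma 3.58.1: a quasi-binomial test of the 2 sets on inclusion and skipping counts, fitted within each kind of event, with a dispersion of at least 1 whose prior follows the reads of the rarer form. This form of dispersion was adopted from earlier work on the table that had already seen its calls. Junction totals were tested with limma and a mean-variance trend, with a pseudocount of 1. The pseudocount makes log2 ratios of sparsely read genes too small. Both tests were tested on simulated data, and the simulated spread of the event test was changed once, after the spread of the real counts was seen.

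Named events were those the authors called; the 8 largest differences without overlap between sets; the 6 smallest p-values; the most balanced event of each role; and the balanced events of Trp53, Mdm2 and Mdm4. Named totals were the highest of each role and the 5 largest ratios in each direction. Events outside mutually exclusive exons with a rarer form of 5 or more reads, events that differed by 0.10 or more, the Mdm4 68-base exon and the Atr exon were added after values were seen. Reading frames and sequences came from GENCODE vM21 transcripts; all 381 events lay inside the annotated gene. Alternatives covered count minimums, scaling, pseudocount, dispersion, another test and leaving out each library.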

Additional observations from a re-analysis of the deposited data

How the results depend on the processing

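Events of the repair genes called by the quasi-binomial test stayed at 0 under every count minimum tried, limma on logit levels, the other dispersion, no minimum change and leaving out any library. Over all events the count of 0 became 64 with the dispersion moderated along the total count, and ranged from 0 to 5 when each library was left out. The authors' 4 calls became 0 at an adjusted p under 0.01, and 1 at a change of 0.20 or more or at a mean count of 20 or more. Genes called by total went from 0 to 1 (Fancl) with reads summed over skipped-exon events, and ranged from 0 to 2 when each library was left out (Msh3 and Xrcc4 without set 1 library 1, Msh3 without set 2 library 1). Over all genes 88 calls ranged from 25 to 287, the highest without set 1 library 1. The cause was not tested. Leaving out each library turned the sign of small differences: Mdm4 3-base acceptor, -0.0024 to 0.0764; Mdm2 5′ site, -0.0034 to 0.0031; Trp53 intron, -0.0048 to 0.0032; Mdm4 5′ UTR exon, -0.0302 to 0.0067; and the log2 totals of Apex1 (-0.05 to 0.12), Chek1 (-0.26 to 0.01), Ddb1 (-0.09 to 0.07), Fanca (-0.14 to 0.17), Fancd2 (-0.55 to 0.01), Pms2 (-0.11 to 0.14), Rev1 (-0.16 to 0.04) and Trp53 (-0.09 to 0.07). Ddb1 was at 0.00 with summed skipped-exon reads. No paired analysis was possible because the table's columns carry no replicate numbers. The planned edgeR and DESeq2 fits were not run. Depth limits events with few reads of the rarer form, in which a change of a few reads could not be resolved.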
